A study of Mus musculus with 41 samples.

Results

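The RNA bound to ribosomes of dopamine D1 receptor neurons was compared between mice that had escalated their cocaine intake and mice that had self-administered saline, about 1 month after self-administration ended. The comparison rests on 9 immunopurified libraries, 4 of the escalating group and 5 of the saline group, chosen by their group labels out of 41 libraries in the series. A further 11 libraries of nonescalating cocaine mice at 1 month, 6 and 5 under labels of different wording, entered the same fit and are given beside the result. For the question of time, 5 escalating and 5 saline libraries taken 24 h after self-administration were used, and 2 unpurified saline libraries served to check the purification. The nonescalating cocaine libraries taken at 24 h also entered the fit for time, which held 39 immunopurified libraries. All groups were adult mice of the Drd1-EGFP/Rpl10a line CP73, a transgenic line of FVB/N-Swiss Webster origin crossed to C57BL/6 over a minimum of 9 generations, and all tissue was dorsal striatum. In this line the control region of Drd1 drives a ribosomal protein L10a fused to EGFP, so tagged ribosomes can be pulled down with antibodies against EGFP (translating ribosome affinity purification, TRAP). At 1 month the labels of the saline and of 6 nonescalating libraries call the self-administration extended, while those of the escalating and of the other 5 nonescalating libraries do not use that word, and the labels do not say whether the sessions differed. The labels also do not say that each library is 1 mouse, so p-values measure the spread between libraries, part of which may be technical.

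D1 medium spiny neurons are the origin of the direct pathway of the striatum, which promotes movement and the repetition of rewarded actions. Dopamine that builds up under cocaine acts on their D1 receptors. These raise cyclic AMP through the G protein subunit Golf and adenylyl cyclase 5, and thereby activate protein kinase A and the phosphatase inhibitor DARPP-32. The same stimulation induces immediate early genes such as Fos and Fosb and the opioid peptide gene Pdyn. Escalation of intake over long daily sessions, and its persistence after weeks without the drug, are widely used as a model of compulsive cocaine use.

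The escalating libraries held 10264342 to 14467697 counts on genes and the saline libraries 11144951 to 17359995. The D1 identity of the RNA was visible in both groups: Drd1 was at 546 to 678 CPM (counts per 1e6 counts) in escalating and 590 to 655 CPM in saline libraries, against 330 to 445 CPM in the unpurified libraries. Penk, the enkephalin precursor gene of D2 neurons, was at 110 to 143 CPM in escalating and 102 to 215 CPM in saline libraries, against 952 to 1010 CPM before purification. All 13 microglial markers averaged below 1 CPM. Of 9 ependymal and choroid plexus markers 5 averaged below 1 CPM, among them Tmem212 and Folr1 at 0. The 9 markers summed to 32.37 to 35.07 CPM in escalating and 16.93 to 41.41 CPM in saline libraries. Libraries stood apart in both groups, on more than 1 measure. Escalating replicate 4 and saline replicate 2 had the highest summed CPM of 13 cortical glutamatergic neuron markers, 241.2 against 46.41 to 102.4 in the other escalating libraries, and 331.4 against 49.6 to 108.7 in the other saline libraries. Saline replicate 2 was the highest of the 9 libraries for 20.3% of the genes tested and the lowest for 21.9%. Escalating replicate 4 was the highest for 13.2% and the other escalating libraries for 5.54% to 7.13%. The saline libraries other than replicate 2 were the highest for 7.37% to 15.5%. Saline replicate 5 lay at 66.3 on the first principal component of the 20 libraries at 1 month (22% of the variance), against -53.9 to -13.2 for the other saline libraries and -23.3 to 32.8 for the escalating libraries. Of the 9 libraries it also had the highest summed CPM of endothelial and mural markers, at 1276. The other saline libraries had 56.8 to 198 and the escalating libraries 112.3 to 730.2. Nonescalating libraries spanned wider ranges, -77.2 to 91.8 on the first component and 43.04 to 2041 CPM for these markers. Nonescalating replicate 2, of the 6 libraries labelled extended, lay at -141.6 on the second component (14.1% of the variance). Escalating libraries lay at -6.1 to 20.4 on it and saline libraries at -16.1 to 24.6. That nonescalating library had 13370 detected genes, the fewest at 1 month. It entered the shared estimate of the spread and was not left out on its own in any alternative. Across 18 measures of the libraries (depth, detected genes, counting losses and the sums of 13 marker lists), the lowest p between escalating and saline libraries was 0.167 in a two-sided exact permutation test, with an adjusted p of 0.933, where 126 splits allow 0.00794 at the least.

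No gene passed adjustment between escalating and saline libraries at 1 month. Of 14488 genes tested with edgeR's quasi-likelihood F test, 0 had an adjusted p under 0.05 (0%), and the lowest adjusted p was 0.9998. At an unadjusted p under 0.05 there were 187 genes, 1.29% of those tested, 87 of them higher and 100 lower in escalating libraries. The lowest unadjusted p was 0.00122. If no gene differed and p-values were evenly spread, a share near 0.05 would be expected, so 1.29% is not an excess. A fit of the escalating and saline libraries only called 0 genes, and 334 of 13250 had an unadjusted p under 0.05. DESeq2 also called 0 genes and gave 222 at an unadjusted p under 0.05. Saline replicate 2 was the highest of the 9 libraries in 59 of the 100 lower genes, and escalating replicate 4 was the highest in 51 of the 87 higher genes. Over all genes tested the shares were 20.3% and 13.2%. The counts are raised by the choice of genes by direction, since the highest library always belonged to the higher group. Without saline replicate 2 and escalating replicate 4, 0 genes were called and 74 had an unadjusted p under 0.05. Without saline replicate 5, 0 were called and 469 had one. On values scaled by TMM, the 4 escalating libraries all lay above the 5 saline libraries for 82 genes (0.566% of those tested) and all below them for 92 genes (0.635%). The median log2 fold change, escalating over saline, was -0.03 over all genes, with quartiles of -0.20 and 0.15, and 45.1% of genes had a positive value.

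How small a difference could be seen varied with the level of a gene. The median standard error of the log2 fold change was 0.339. For 7914 genes (54.6%) the 95% interval lay within -1 to 1, so that a difference of 2-fold or more lay outside it, and for 2748 genes (19%) it lay within -0.5 to 0.5. These intervals are for single genes and are not adjusted for the number of genes. Gene lists were described by how many members had a positive fold change, and these counts moved with single libraries. With each of the 9 escalating and saline libraries left out in turn, the sign of the median turned at least once in 24 of 41 lists; it turned in 10 lists without saline replicate 2, in 9 without saline replicate 5 and in 5 without escalating replicate 4. Counts are therefore given with their range over those 9 fits, or with the libraries that moved them. The plot of all genes shows the spread widening toward low levels.

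**Figure D1:**
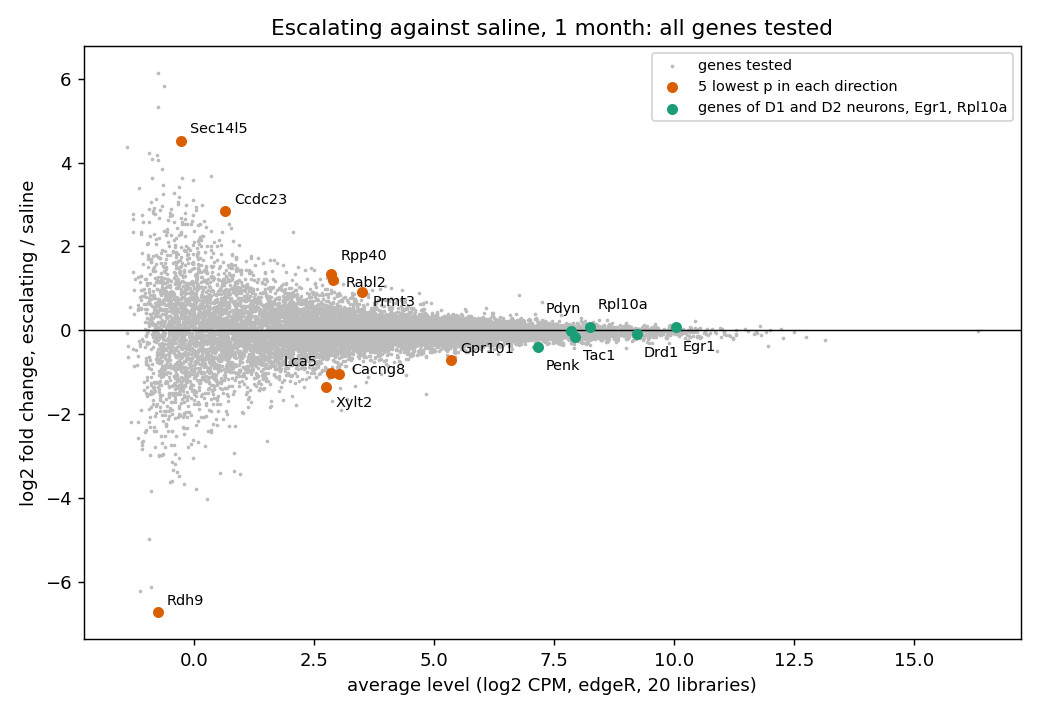
Log2 fold change of escalating over saline libraries (vertical axis) against the average level in log2 CPM (horizontal axis) for the 14488 genes tested at 1 month; orange points are the 5 genes with the lowest p in each direction and green points are genes of D1 and D2 neurons, Egr1 and Rpl10a. No gene passed an adjusted p of 0.05, and the spread narrows from low to high levels, with Drd1, Tac1, Pdyn, Egr1 and Rpl10a close to 0.

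None of the genes that define D1 neurons passed the test, and the intervals of Drd1 and Pdyn were narrow. Drd1 was at 678, 546, 677 and 551 CPM in escalating libraries, against 590, 641, 626, 655 and 631 CPM in saline libraries, giving -0.08 ± 0.12 on the log2 scale (95% interval -0.33 to 0.17), where ± marks the standard error of a fold change throughout. The saline libraries lay within the escalating range. Pdyn, the dynorphin precursor gene, was at 259, 197, 219 and 247 CPM in escalating libraries, against 260, 230, 175, 161 and 317 CPM in saline libraries, a log2 fold change of -0.02 ± 0.16 (95% interval -0.35 to 0.32). Tac1, which encodes substance P, was at 274, 251, 272 and 174 CPM in escalating libraries, against 237, 370, 254, 217 and 233 CPM in saline libraries. Its log2 fold change was -0.16 ± 0.22 and was 0.0046 without saline replicate 2, the highest library. Rpl10a, to which reads of the tagged transgene also map, had a log2 fold change of 0.09 ± 0.14. Of 10 D1 markers, 0 were called (0% of all genes), 3 had a positive fold change and the median was -0.04, beside -0.03 for all genes. The count was 3 to 6 with 1 library left out, and 6 without saline replicate 2 or without saline replicate 5. Of 21 markers shared by D1 and D2 medium spiny neurons, 0 were called, 7 were positive (5 to 10 with 1 library left out) and all 21 intervals lay within -1 to 1.

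Nearly all dopamine and cyclic AMP signalling genes had intervals that left out a difference of 2-fold. Of 27 tested, 0 were called, 10 had a positive fold change (8 to 15 with 1 library left out, 15 without escalating replicate 1) and 26 had an interval within -1 to 1, with a median of -0.03. Adcy5, the adenylyl cyclase of the D1 receptor pathway, was at 550, 588, 596 and 600 CPM in escalating libraries, against 635, 630, 603, 662 and 663 CPM in saline libraries. The groups did not overlap, and the log2 fold change was -0.17 ± 0.11 (95% interval -0.41 to 0.06). Ppp1r1b, which encodes DARPP-32, had a log2 fold change of -0.18 ± 0.20, and Prkacb, a catalytic subunit of protein kinase A, one of -0.13 ± 0.13. The interval excluded 0 for Grk6, a kinase that desensitises G protein-coupled receptors. Grk6 was at 10.4, 9.3, 11.8 and 14.2 CPM in escalating libraries, against 8.97, 3.41, 7.9, 7.49 and 6.36 CPM in saline libraries, a log2 fold change of 0.70 ± 0.30 that did not pass adjustment and was 0.38 without escalating replicate 4 and saline replicate 2. Among 13 phosphodiesterase genes 0 were called, and Pde10a, the main cyclic nucleotide phosphodiesterase of medium spiny neurons, had a log2 fold change of 0.11 ± 0.12 (95% interval -0.14 to 0.36). Among 16 genes of the regulators of G protein signalling 0 were called and 8 were positive (6 to 10).

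Peptide and opioid genes were mostly at negative values, but not without saline replicate 2. Of 19 tested, 0 were called, 3 had a positive and 16 a negative fold change, and the median was -0.13. With 1 library left out 2 to 11 were positive. Without saline replicate 2, 11 of 19 were positive and the median was 0.0050, and without escalating replicate 4 as well, 6 of 19 were positive with a median of -0.05. Penk was at 143, 110, 111 and 117 CPM in escalating libraries, against 153, 215, 128, 102 and 172 CPM in saline libraries. Its log2 fold change was -0.39 ± 0.19 (95% interval -0.78 to -0.01) and -0.24 without saline replicate 2. The groups overlapped, since saline replicate 4 was the lowest of the 9 libraries. Oprm1, the mu opioid receptor gene, which marks striosomes, had a log2 fold change of -0.49 ± 0.38, and the neurotensin gene Nts one of -0.52 ± 0.50. Cartpt was at 3.22, 0.797, 1.31 and 4.49 CPM in escalating libraries, against 3.68, 12.5, 1.08, 1.5 and 3.53 CPM in saline libraries, with a log2 fold change of -0.87 ± 0.98, which was 0.0050 without saline replicate 2 and -1.38 without escalating replicate 4. Bdnf, which encodes the growth factor BDNF, was at 0 to 1.02 CPM in escalating and 0 to 1.98 CPM in saline libraries, with a 95% interval of -3.82 to 2.92 for the log2 fold change. The D2 receptor gene Drd2 was at 10.8 to 18.2 CPM in escalating and 12.6 to 19.3 CPM in saline libraries, a log2 fold change of -0.32 ± 0.33. Of 11 D2 markers tested, 0 were called and 5 were positive (3 to 6 with 1 library left out).

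Immediate early genes spread widely within both groups. Of 22 tested, 0 were called, 8 had a positive fold change and the median was -0.15; without saline replicate 2, 12 of 21 were positive with a median of 0.13, and without escalating replicate 4 as well, 7 of 21. Without escalating replicate 2, 13 of 22 were positive. Egr1 was at 1320, 1070, 1170 and 1370 CPM in escalating libraries, against 1030, 1380, 1020, 1460 and 762 CPM in saline libraries, a log2 fold change of 0.08 ± 0.24 (95% interval -0.41 to 0.56). Fosb, whose truncated product accumulates in striatal neurons under repeated cocaine, was at 34.5, 31.4, 32.6 and 49.7 CPM in escalating libraries, against 38.2, 51.3, 35.5, 51.9 and 23.4 CPM in saline libraries. The difference was -0.16 ± 0.30 on the log2 scale, and gene counts do not separate its isoforms. Fos was at 2.63, 1.06, 2.7 and 13.2 CPM in escalating libraries, against 10.3, 3.21, 0.862, 3.63 and 1.34 CPM in saline libraries. The value of 0.32 ± 0.90 on the log2 scale became -0.92 without escalating replicate 4. Npas4 was also highest in that library, at 3.51, 5.23, 4.35 and 36.3 CPM in escalating libraries, against 24.9, 4.71, 6.04, 26.3 and 5.23 CPM in saline libraries. On the log2 scale the difference was -0.15 ± 0.76, and -1.71 without escalating replicate 4. Arc, whose protein acts at synapses, was at 62.3, 24.6, 66.1 and 123 CPM in escalating libraries, against 117, 159, 35.6, 44.5 and 32 CPM in saline libraries. The orphan nuclear receptor gene Nr4a1 was at 110, 71.2, 182 and 196 CPM in escalating libraries, against 123, 198, 63, 48.7 and 99.6 CPM in saline libraries. The log2 fold change was -0.20 ± 0.57 for Arc and 0.38 ± 0.51 for Nr4a1, and for both genes the groups overlapped over most of their range. Arc was at 0.25 without saline replicate 2 and at -0.66 without escalating replicate 4, and Nr4a1 at 0.73 and 0.14. Of 14 genes that are induced by and dampen ERK signalling, 0 were called and 9 were positive (7 to 11), among them the phosphatase genes Dusp14 (0.29 ± 0.17) and Dusp4 (0.83 ± 0.54).

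**Figure D2:**
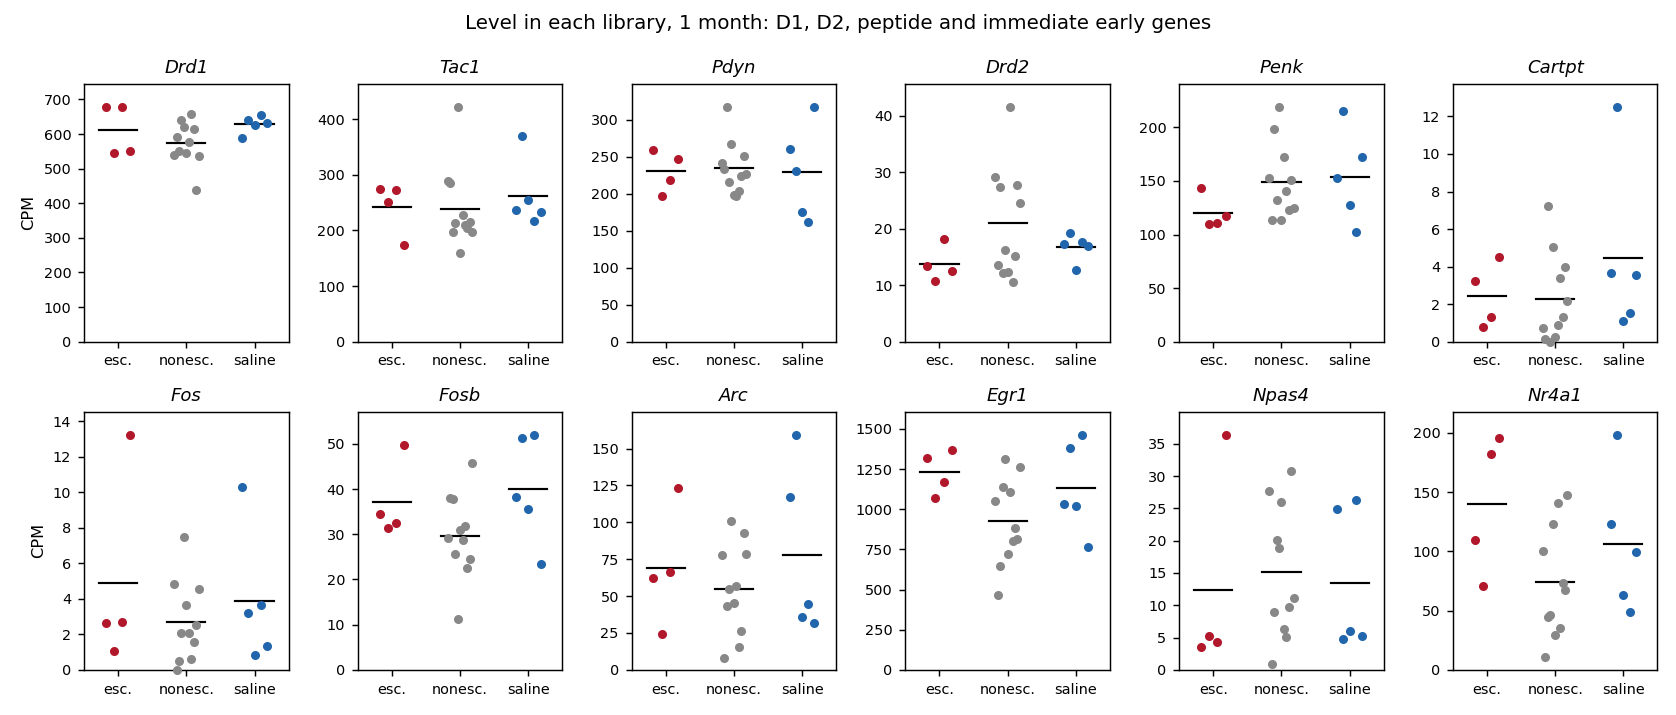
Level in CPM (vertical axes, from 0) in each library at 1 month for 12 genes of D1 neurons, D2 neurons, peptides and the immediate early response; points are the 4 escalating, 11 nonescalating and 5 saline libraries and black lines are group means. The groups overlap for every gene shown, and single high libraries appear for Fos and Npas4 (escalating replicate 4) and for Cartpt and Tac1 (saline replicate 2).

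The genes with the lowest p that were higher in escalating libraries were Ccdc23, Rpp40, Prmt3, Sec14l5 and Rabl2, and none passed adjustment. Ccdc23 (Svbp in RefSeq, chromosome 4, 119195310 to 119201298) encodes the small partner of the vasohibins, enzymes that remove tyrosine from tubulin. It was at 3.12, 3.19, 1.8 and 1.26 CPM in escalating libraries, against 0.538, 0.41, 0.216, 0.23 and 0.141 CPM in saline libraries. Every escalating library was above every saline library, and the log2 fold change was 2.84 ± 0.78 (95% interval 1.24 to 4.45). Rpp40 (chromosome 13, 35895104 to 35911565), a protein subunit of ribonuclease P, was at 8.48, 12.7, 8.57 and 13 CPM in escalating libraries, against 5.92, 1.02, 4.38, 4.49 and 4.59 CPM in saline libraries. Its groups did not overlap and its log2 fold change was 1.34 ± 0.42. Prmt3 (chromosome 7, 49778319 to 49861264), an arginine methyltransferase that acts on a protein of the small ribosomal subunit, was at 13.8, 14.5, 11.3 and 12.4 CPM in escalating libraries, against 9.96, 6.42, 6.68, 4.95 and 5.3 CPM in saline libraries. Its groups also did not overlap, with a log2 fold change of 0.92 ± 0.31. Rabl2 (chromosome 15, 89582527 to 89591960), a small GTPase of cilia, was at 6.82, 7.97, 8.23 and 18.3 CPM in escalating libraries, against 6.37, 3.55, 5.68, 3.74 and 2.4 CPM in saline libraries. The fold change of 1.21 ± 0.43 (log2) was 0.75 without escalating replicate 4, the highest library. Sec14l5 (chromosome 16, 5146906 to 5187271), of the SEC14 family of lipid-binding proteins, was at 0.0974, 0.62, 0.415 and 3.47 CPM in escalating libraries, against 0, 0.0683, 0, 0 and 0.141 CPM in saline libraries. Few reads stand behind it, and its log2 fold change of 4.52 ± 1.59 was 2.89 without escalating replicate 4.

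The genes with the lowest p that were lower in escalating libraries were Gpr101, Xylt2, Rdh9, Cacng8 and Lca5, and again none passed adjustment. Gpr101 (chromosome X, 57496668 to 57503757), an orphan G protein-coupled receptor, was at 29.1, 25.3, 42.9 and 37.3 CPM in escalating libraries, against 46.2, 76.9, 37.8, 54.3 and 53.5 CPM in saline libraries. Its log2 fold change was -0.71 ± 0.22 (95% interval -1.16 to -0.26), and -0.54 without saline replicate 2; saline replicate 3 lay within the escalating range. Xylt2 (chromosome 11, 94663845 to 94677518), an enzyme that starts glycosaminoglycan chains on proteoglycans, was at 3.22, 4.07, 5.74 and 4.73 CPM in escalating libraries, against 10.2, 19.9, 6.83, 8.99 and 9.89 CPM in saline libraries. Every escalating library was below every saline library, and the log2 fold change was -1.36 ± 0.44. Cacng8 (chromosome 7, 3394042 to 3416266), an auxiliary subunit of AMPA-type glutamate receptors, was at 7.01, 4.69, 5.88 and 3.23 CPM in escalating libraries, against 14.1, 16.1, 5.1, 8.06 and 8.98 CPM in saline libraries, a log2 fold change of -1.05 ± 0.37. Saline replicate 3 lay within the escalating range. Lca5 (chromosome 9, 83391355 to 83442994), which encodes the ciliary protein lebercilin, was at 4.77, 5.23, 6.36 and 6.77 CPM in escalating libraries, against 7, 22.2, 9.84, 7.78 and 10.7 CPM in saline libraries. The fold change of -1.02 ± 0.36 (log2) was -0.64 without saline replicate 2, the highest library. Rdh9 (chromosome 10, 127776405 to 127792697), a gene of the retinol dehydrogenase family, had 0 counts in all 4 escalating libraries, against 0.449, 0.546, 1.51, 0 and 2.33 CPM in saline libraries. In counts pooled by group, with a floor of 3 counts for the escalating group, it was at least 15.3-fold lower. The saline group held 67 counts, and 1 of its libraries also had 0. This bound takes no account of the spread between saline libraries. Without saline replicate 5, the highest at 2.33 CPM, Rdh9 fell under the count filter and was not tested.

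The nonescalating libraries give a further view of these 10 genes, although their comparison with saline shares the saline libraries. For Prmt3 the log2 fold change of nonescalating over saline was 0.88 ± 0.26 and for Ccdc23 2.37 ± 0.69, values beside the 0.92 and 2.84 of escalating over saline. The nonescalating medians were 13.1 CPM for Prmt3 and 1.49 CPM for Ccdc23. For Xylt2 the log2 fold change of nonescalating over saline was -1.09 ± 0.33, for Lca5 -1.09 ± 0.27 and for Gpr101 -0.53 ± 0.17. Escalating against nonescalating libraries, which share no saline library, gave 0.04 ± 0.27 for Prmt3, 0.47 ± 0.62 for Ccdc23, -0.27 ± 0.38 for Xylt2, 0.07 ± 0.31 for Lca5 and -0.18 ± 0.19 for Gpr101. Each of these 5 values was smaller than its standard error. Of the other genes, Rpp40 had a log2 fold change of escalating over nonescalating of 0.54 ± 0.35, Rabl2 of 0.47 ± 0.36, Sec14l5 of 0.54 ± 1.14 and Cacng8 of -0.62 ± 0.32, and Rdh9 was at 0 to 1.78 CPM in nonescalating libraries. None of these differences passed adjustment.

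**Figure D3:**
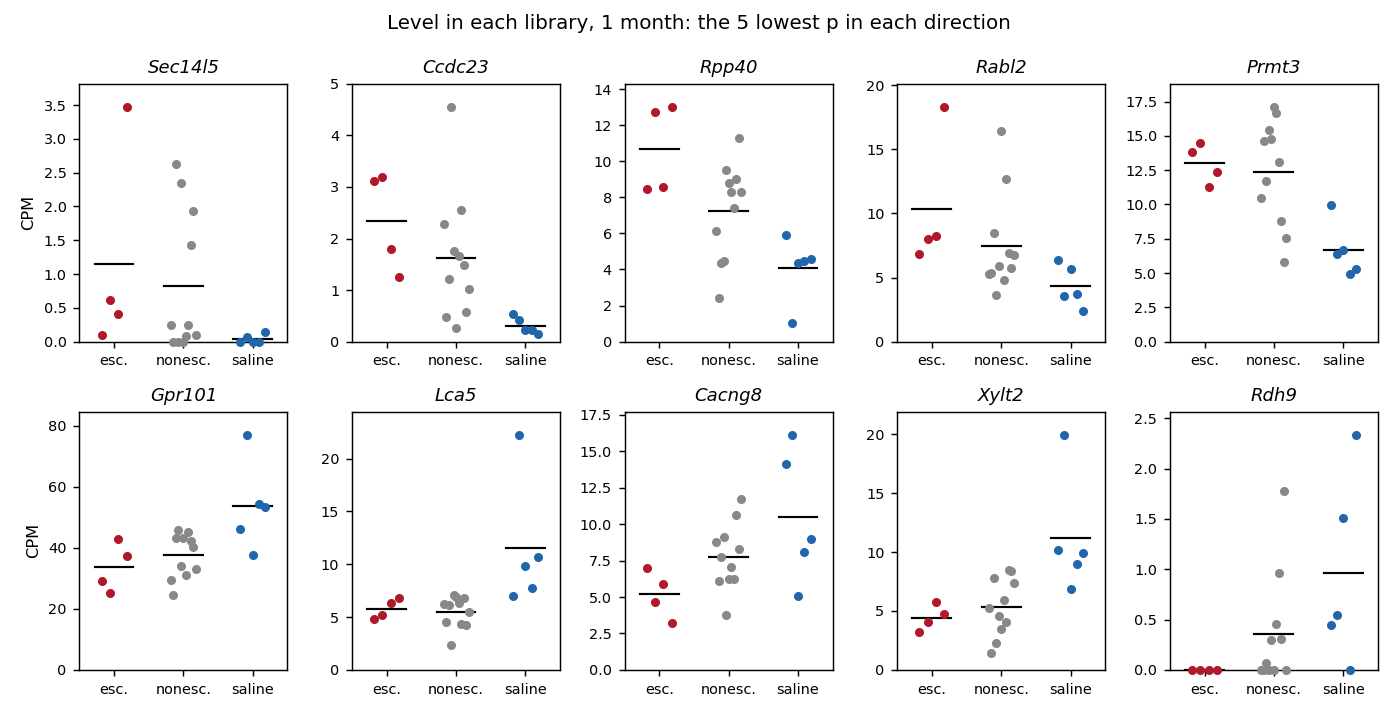
Level in CPM (vertical axes, from 0) in each library at 1 month for the 5 genes with the lowest p in each direction; upper row higher and lower row lower in escalating than in saline libraries, points are libraries and black lines group means. None passed adjustment; escalating and saline libraries are separate for Ccdc23, Rpp40, Rabl2, Prmt3, Lca5 and Xylt2, and the nonescalating libraries overlap the escalating range in every panel.

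Receptor, channel and synaptic genes held no called member. Of 26 ionotropic glutamate receptor and auxiliary subunit genes, 9 were positive (7 to 15 with 1 library left out) with a median of -0.08; Cacng8 and Grik1 had the lowest p. Grik1, a kainate receptor subunit gene, was at 0.487, 0, 0.899 and 16.3 CPM in escalating libraries, against 0.0897, 0.819, 0.719, 0 and 0.0707 CPM in saline libraries. This gave 3.67 ± 1.46 on the log2 scale, and 0.39 without escalating replicate 4. Of 7 metabotropic glutamate receptor genes 4 were positive (3 to 6), and of 14 GABA receptor genes 3 (3 to 6), with a median of -0.09 and 12 intervals within -1 to 1. Gabra5 had a log2 fold change of -0.26 ± 0.19. Of 45 potassium channel genes 13 were positive, with 6 without escalating replicate 4, 8 without saline replicate 5 and at most 19 in the other fits, and Kcnj3, an inward rectifier opened by G proteins, had the lowest p at -0.58 ± 0.32. Of 24 sodium and calcium channel genes 7 were positive (7 to 12). Of 38 synaptic vesicle genes 6 were positive with a median of -0.09, and 7 to 14 were positive with 1 library left out, 14 of them without saline replicate 2. Syp, the vesicle protein synaptophysin, was at 722, 635, 574 and 655 CPM in escalating libraries, against 726, 1080, 599, 629 and 878 CPM in saline libraries. The log2 value of -0.31 ± 0.15 was -0.16 without saline replicate 2. Of 40 postsynaptic scaffold and plasticity genes 16 were positive (13 to 20) and 37 had an interval within -1 to 1.

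Cytosolic ribosomal protein genes had the highest share of positive values among the lists with at least 6 members tested, at small sizes. Of 78 tested, 0 were called, 63 were positive (80.8%, beside 45.1% of all genes) and the median log2 fold change was 0.12. The count was 55 to 69 with 1 library left out, 55 without saline replicate 5, and 71 without escalating replicate 4 and saline replicate 2 together. These genes share libraries and scaling and are not independent, and the shift was not tested. Rps9 was at 54.8, 53.8, 50.7 and 48.4 CPM in escalating libraries, against 41.7, 38.3, 42.6, 36.2 and 43.5 CPM in saline libraries, a log2 fold change of 0.31 ± 0.18. Its groups did not overlap, as was the case for 3 of 78 members, beside 0.566% of all genes. Rps27a had a log2 fold change of 0.51 ± 0.26. The members' median was 0.10 for nonescalating over saline libraries, which share the saline libraries, and 0.02 for escalating over nonescalating. Oxidative phosphorylation genes were positive in 45 of 76 (34 to 53) with a median of 0.03, which was -0.01 without saline replicate 5. Translation factors were positive in 14 of 32 (10 to 17) and proteasome subunits in 14 of 31 (14 to 18), with 0 called. All 32 translation factor and all 31 proteasome intervals lay within -1 to 1.

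Stress, clock, metabolic and nuclear genes likewise held no called member. Of 24 endoplasmic reticulum chaperone and stress genes 7 were positive (6 to 11 with 1 library left out), of 18 circadian clock genes 7 (6 to 7), of 16 glucocorticoid-responsive genes 7 (6 to 9) and of 18 cholesterol synthesis genes 7 (5 to 9). Of 17 heat shock genes 6 were positive with a median of -0.03, and 12 were positive, with a median of 0.05, without escalating replicate 4 or without escalating replicate 2. The clock gene Per3 was at 33.4, 36.1, 33.6 and 39.1 CPM in escalating libraries, against 32.1, 82.7, 31.4, 37.6 and 59.8 CPM in saline libraries. The log2 value of -0.48 ± 0.23 was -0.20 without saline replicate 2. Arntl, which encodes the clock activator BMAL1, had a log2 fold change of 0.48 ± 0.31. Lss, the cholesterol pathway enzyme lanosterol synthase, was at 16.2, 22.1, 21.9 and 13.1 CPM in escalating libraries, against 26.1, 24.7, 24.4, 24.8 and 28.4 CPM in saline libraries. The groups did not overlap, with a log2 fold change of -0.53 ± 0.27. Of 40 chromatin genes 23 were positive (17 to 26), and Hdac3, a histone deacetylase, had a log2 fold change of 0.44 ± 0.30. Of 49 splicing and RNA-binding protein genes 15 were positive (14 to 22) and 48 intervals lay within -1 to 1. Of 38 cytoskeleton genes 12 were positive, and 20 without saline replicate 2 or without escalating replicate 2. Of 15 interferon response genes 6 were positive, and 12 of 14 without saline replicate 5. Of 14 Kruppel-like factor genes 10 (8 to 11) and of 11 nuclear long noncoding RNAs 5 (5 to 8) were positive.

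**Figure D4:**
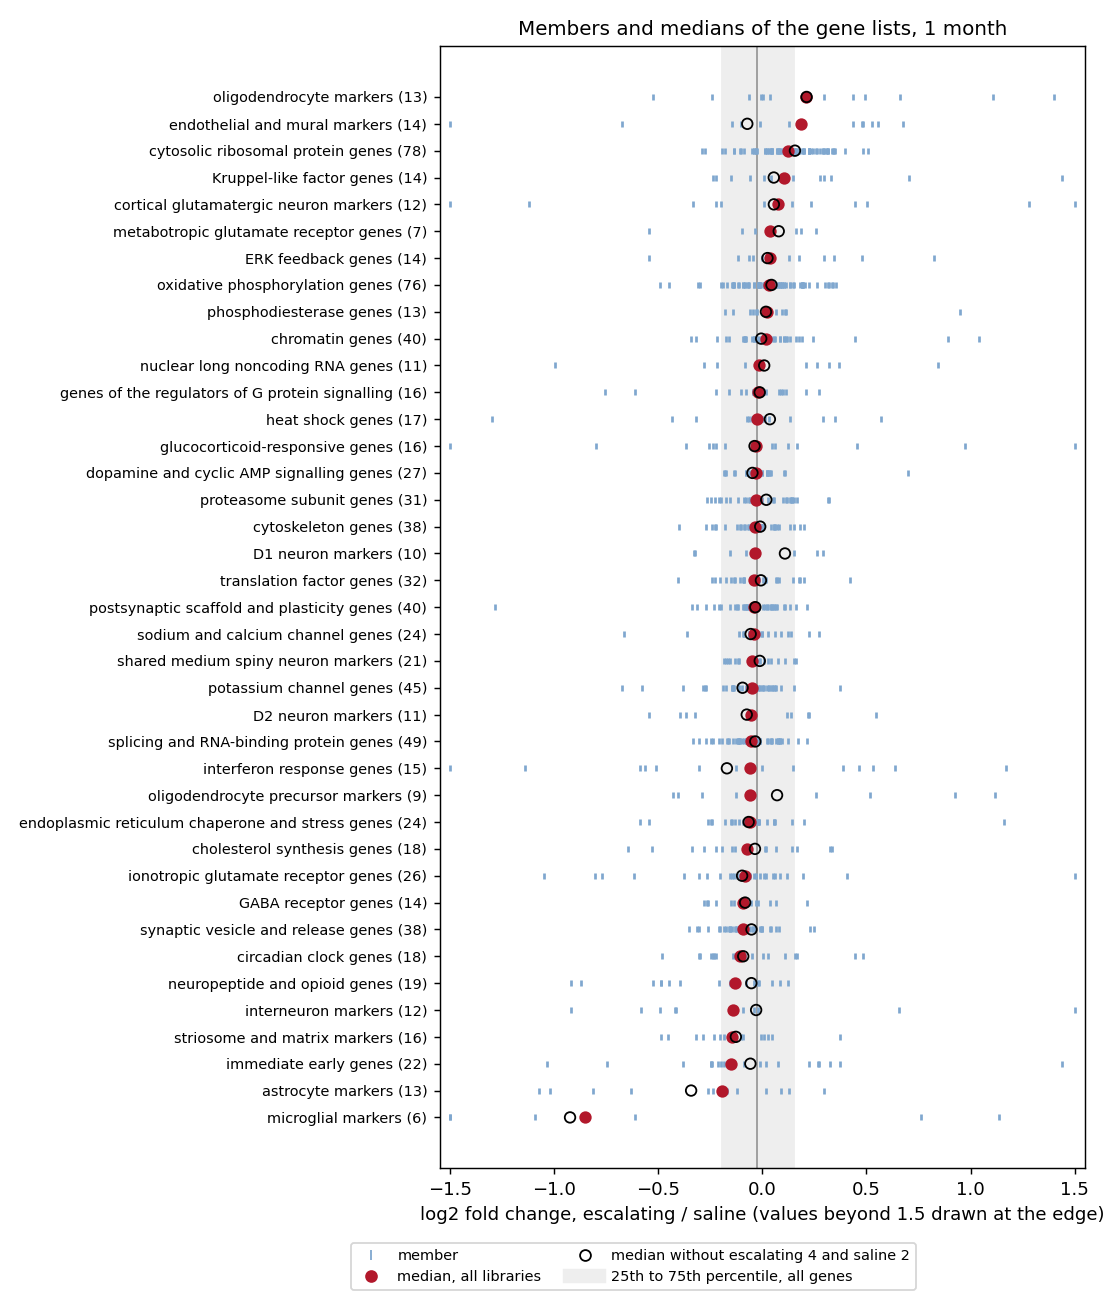
Log2 fold change of escalating over saline libraries at 1 month for members (blue ticks) of the gene lists with at least 6 members tested, with the list median in all libraries (red) and without escalating replicate 4 and saline replicate 2 (open circles); numbers in brackets are members tested. The grey band spans -0.20 to 0.15, the quartiles of all genes; with all libraries the oligodendrocyte (0.21), endothelial and mural (0.18) and microglial (-0.85) medians lie outside it. Without both libraries the endothelial median (-0.07) lies inside and the astrocyte (-0.34) and ribosomal protein (0.16) medians outside.

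Markers of other cells varied between libraries, and those of some types, such as microglia, were few in reads. In bulk RNA fewer cells of a type and less RNA per cell cannot be told apart, and here the amount carried through the purification adds to both. Of 14 endothelial and mural markers 0 were called, 9 were positive and 0 had an interval within -1 to 1. The count was 6 of 14 without saline replicate 2 (median -0.05) and 13 of 14 without saline replicate 5 (median 1.45), beside a median of 0.18 with all libraries. Flt1, a vascular growth factor receptor, was at 263, 145, 36.8 and 166 CPM in escalating libraries, against 63.6, 36.1, 38.7, 12.9 and 330 CPM in saline libraries. The log2 fold change was 0.68 ± 0.83, with the highest value in saline replicate 5. Of 13 astrocyte markers 4 were positive (1 to 5 with 1 library left out, 1 without saline replicate 2), of 13 oligodendrocyte markers 9 (8 to 11) and of 6 microglial markers 2 (2 to 3), with 0 called. Of 4 ependymal and choroid plexus markers tested 4 were positive (3 to 4), with a median of 0.43 and 0 called. Of 12 cortical markers 7 were positive with a median of 0.07. Without saline replicate 2, 10 of 11 were positive (median 0.74), and without escalating replicate 4, 3 of 13 (median -0.95). Of 12 interneuron markers 2 were positive (median -0.14), 6 of 12 without saline replicate 2 (median 0.15) and 7 of 13 without escalating replicate 2. Slc18a3, the vesicular acetylcholine transporter of cholinergic interneurons, was at 0.0974, 0.0886, 1.31 and 0.0788 CPM in escalating libraries, against 0.0897, 0, 0, 0 and 0 CPM in saline libraries, a value carried by escalating replicate 3. Cux2, of cortical neurons, was at 6.04, 6.11, 6.84 and 6.77 CPM in escalating libraries, against 7.9, 36.7, 5.68, 9.16 and 9.12 CPM in saline libraries. The log2 value of -1.12 ± 0.60 was -0.33 without saline replicate 2. The part of these cells in the values of other genes was not tested.

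Between escalating and nonescalating libraries at 1 month no gene passed adjustment either. Of 14488 genes 0 had an adjusted p under 0.05 (0%), the lowest being 0.9998, and 177 (1.22%) had an unadjusted p under 0.05. Here too the share was below 0.05. The genes with the lowest p that were higher in escalating libraries were Bambi, Grik1, Dusp14, Dusp4 and Ost4. Dusp14 was at 83.7, 87.5, 90.5 and 101 CPM in escalating libraries, against 45.2 to 78.5 CPM in nonescalating libraries with a median of 66.9. All escalating libraries were above all nonescalating ones, and the log2 fold change was 0.47 ± 0.15 (95% interval 0.17 to 0.77). Dusp4 was at 8.77, 5.23, 10.8 and 8.74 CPM in escalating libraries, against 0.624 to 5.99 CPM in nonescalating libraries with a median of 3.34, a log2 fold change of 1.42 ± 0.45. Bambi, a pseudoreceptor that dampens TGF-beta signalling, was at 0.682, 0.0886, 0.968 and 10.3 CPM in escalating libraries, against 0 to 0.878 CPM in nonescalating libraries with a median of 0.439. For Bambi and Grik1 the other 3 escalating libraries lay at 0 to 0.968 CPM. Ost4, a subunit of the oligosaccharyltransferase, had a log2 fold change of 0.49 ± 0.16.

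The genes with the lowest p that were lower in escalating than in nonescalating libraries were Ptk7, Pla2g4e, Luzp2, Tecpr2 and Rgma. Ptk7, a pseudokinase of Wnt signalling, was at 3.12, 1.95, 2.35 and 1.65 CPM in escalating libraries, against 2.5 to 12.8 CPM in nonescalating libraries with a median of 5.63, a log2 fold change of -1.54 ± 0.43. Pla2g4e, a phospholipase A2, was at 1.17, 1.42, 2.42 and 0.315 CPM in escalating libraries, against 2.12 to 10.9 CPM in nonescalating libraries with a median of 4.14, a log2 fold change of -1.91 ± 0.57. For both genes 1 escalating library lay within the nonescalating range. Tecpr2, linked to autophagy, was at 59.7, 61.2, 65.3 and 64 CPM in escalating libraries, against 65 to 94 CPM in nonescalating libraries, a log2 fold change of -0.36 ± 0.12. The log2 fold change was -1.19 ± 0.38 for Luzp2 and -1.60 ± 0.55 for Rgma, which encodes the repulsive guidance molecule RGMa. Rgma was at 37 CPM in nonescalating replicate 2 labelled extended, against 3.91 to 14.3 CPM in the other nonescalating libraries. Against saline libraries the same genes had log2 fold changes, in escalating libraries, of -0.71 ± 0.46 for Ptk7, -1.56 ± 0.61 for Pla2g4e, -0.08 ± 0.14 for Tecpr2, -0.88 ± 0.42 for Luzp2 and -0.76 ± 0.58 for Rgma.

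Whether the difference between escalating and saline libraries was another at 1 month than at 24 h was tested as a difference of differences in 1 fit of 39 immunopurified libraries. Of 15190 genes 0 passed (0%), 1127 (7.42%) had an unadjusted p under 0.05, and the lowest adjusted p in edgeR was 0.103, for Adgrd1, an adhesion G protein-coupled receptor. Adgrd1 was at 7.4, 4.25, 5.88 and 21 CPM in escalating libraries at 1 month, against 5.92, 5.12, 2.44, 8.53 and 3.67 CPM in saline libraries at 1 month. At 24 h it was at 0.918 to 5.55 CPM with a median of 2.08 in escalating libraries, against 7.06 to 103 CPM with a median of 11.5 in saline libraries. The groups overlapped at 1 month and were separate at 24 h. The log2 fold change was 0.88 ± 0.63 at 1 month and -3.75 ± 0.66 at 24 h in this fit, a difference of 4.62 ± 0.90. Saline 24 h replicate 5, the library with the highest value, stood apart from the other saline 24 h libraries. It had 5394332 counts and 11860 detected genes, against 13530 to 15400 in the others, and 37.11% of its reads were outside genes, against 14.33% to 22.64%. Its summed CPM was 1813 for astrocyte markers (212.6 to 464.7 in the others), 557.1 for oligodendrocyte markers (118.4 to 193.4) and 2574 for endothelial and mural markers (26.29 to 628.9), and the part of these cells in the 24 h values was not tested. Without this library the difference was 3.22 ± 0.77 (adjusted p = 0.525, edgeR). DESeq2 called Adgrd1 (adjusted p = 0.000592) and Srrm2 (adjusted p = 0.0159).

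For the other genes with the lowest p for this difference, escalating and saline libraries overlapped at 1 month. Srrm2, a protein of nuclear speckles, was at 1420, 1360, 1430 and 1560 CPM in escalating libraries at 1 month, against 1250, 1050, 1140, 1390 and 1200 CPM in saline libraries. The log2 fold change was 0.21 ± 0.12 at 1 month and -0.53 ± 0.12 at 24 h, where levels were 1280 to 1380 CPM in escalating and 1490 to 2440 CPM in saline libraries. Ttc7b, part of a phosphatidylinositol kinase complex, was at 196 to 250 CPM in escalating and 193 to 243 CPM in saline libraries at 1 month, and at 185 to 260 CPM in escalating and 311 to 645 CPM in saline libraries at 24 h. Its log2 fold change was -0.01 ± 0.18 at 1 month and -1.02 ± 0.17 at 24 h. Nnat, an imprinted gene of the endoplasmic reticulum, had a difference of 4.21 ± 1.03, and of 1.43 ± 0.71 without saline 24 h replicate 5. Mmp24, a membrane metalloproteinase, had one of 2.56 ± 0.66, and of 1.25 ± 0.48 without that library. In the other direction, Tvp23b, of Golgi membranes, was at 5.6 to 11.2 CPM in escalating and 7.56 to 12.7 CPM in saline libraries at 1 month, and at 7.5 to 15.3 CPM in escalating and 0.185 to 3.96 CPM in saline libraries at 24 h, a difference of -2.48 ± 0.65. Mrm1, an RNA methyltransferase of mitochondria, had log2 fold changes of -0.91 ± 0.61 at 1 month and 2.23 ± 0.60 at 24 h, a difference of -3.14 ± 0.85, and Sap30bp had a difference of -3.16 ± 0.89. Without saline 24 h replicate 5 the differences were -2.21 ± 0.57 for Tvp23b, -2.85 ± 0.77 for Mrm1 and -2.92 ± 0.88 for Sap30bp. They were 0.79 ± 0.17 for Srrm2 and 1.06 ± 0.24 for Ttc7b. Sap30bp was at 16.2 to 20.5 CPM in escalating and 15.9 to 20.2 CPM in saline libraries at 1 month. At 24 h 1 escalating library reached 515 CPM beside a median of 17.4 CPM, against 3.15 to 16.5 CPM in saline libraries. Casp1 and Ccdc60 had 0 counts in all saline libraries at 24 h and at most 2.94 and 4.86 CPM in escalating libraries, and in the fit of the 1 month libraries they were under the count filter. At 1 month Casp1 was at 0 to 0.0886 CPM in escalating and 0 to 2.54 CPM in saline libraries.

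**Figure D5:**
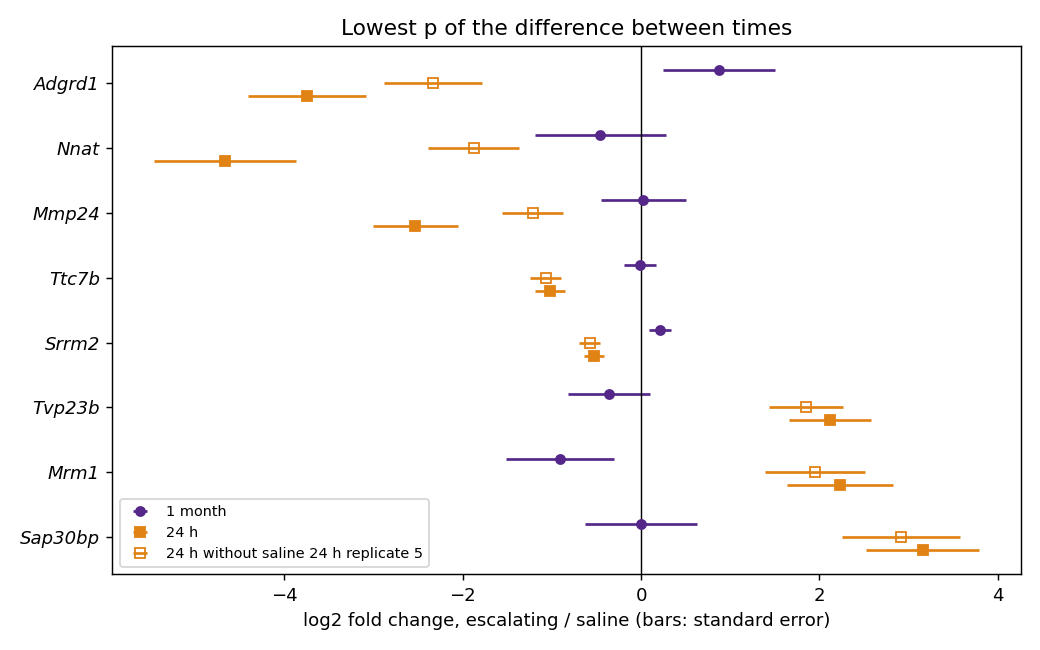
Log2 fold change of escalating over saline libraries (horizontal axis, bars are standard errors) at 1 month (purple circles), at 24 h (filled orange squares) and at 24 h without saline 24 h replicate 5 (open squares) for the genes with the lowest p of the difference between times, without Casp1 and Ccdc60, which had no counts in saline libraries at 24 h. None passed adjustment in edgeR. For Adgrd1, Nnat and Mmp24 the 24 h value moves toward 0 without saline 24 h replicate 5, by more than for the other genes shown. The 1 month values of Mmp24, Ttc7b and Sap30bp lie near 0.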

How the data were processed

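Each library came as a deposited table of raw counts, 1 whole number per gene. The submitters' processing notes name STAR 2.0.0e, HTSeq and the build mm10. Neither the gene annotation nor the strand setting is given in the sources used here. Reads of overlapping genes, antisense partners and pseudogenes therefore cannot be told apart. Of the entries, 32531 named genes were used; 5 summary lines (reads outside genes came to 14.95% to 23.18% across 1 month libraries) and 1 entry named unknown were left out.

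CPM are counts per 1e6 counts on named genes, not scaled further, so levels are not compared between genes. Tests used edgeR 4.0.16 in R 4.3.3: TMM scaling, filterByExpr, quasi-likelihood F tests and Benjamini-Hochberg adjustment, with group as the factor and a threshold of 0.05. The 20 immunopurified libraries at 1 month were fitted together, and the 39 at both times for the difference of differences. DESeq2 1.42.0, sva 3.50.0, other filters and scaling, and libraries left out were alternatives. Single measures were compared by exact permutation tests.

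Named genes are the 5 with the lowest p in each direction of each comparison, up to 4 of each list with the lowest p, and 14 genes listed at the outset; genes with Gm, Rik or accession names were passed over, and some genes are not reported here. The groups, 41 lists and tests were chosen with earlier results of these data known. Positions are from RefSeq for GRCm38.p6, the build of mm10, in which all 193 named genes were matched. No libraries were duplicates (16 pairs within groups, lowest chi-square per degree of freedom 14.1).

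On simulated counts with 100 genes changed 2-fold and 100 changed 4-fold, all at a mean of 5 CPM or more, 49% and 87% were recovered for escalating against saline, 59% and 96% against nonescalating, and 11% and 64% for the difference of differences. False calls were 5.56%, 3.73% and 1.32% of the calls. The simulated libraries did not include any that stand apart.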

Additional observations from a re-analysis of the deposited data

Results flagged for a closer look

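A single library lay far from the others of its group in 17 of 104 cases checked, over 34 genes and 18 library measures in each group, where chance gives about 1 in 20 for normally distributed values. Low CPM are skewed, and some of the genes were chosen for a low p, so the number is not set against that rate. Most involved escalating replicate 4 or saline replicate 2.

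Escalating replicate 4 was the highest of its group, against the range of the other 3 escalating libraries, for Bambi (10.3 against 0.0886 to 0.968 CPM), Grik1 (16.3 against 0 to 0.899 CPM) and Sec14l5 (3.47 against 0.0974 to 0.62 CPM). It was also the highest for Rabl2 (18.3 against 6.82 to 8.23 CPM). Among activity-regulated genes the same library stood apart for 3, Fos at 13.2 against 1.06 to 2.7 CPM, Fosb at 49.7 against 31.4 to 34.5 CPM and Npas4 at 36.3 against 3.51 to 5.23 CPM. That library had the fewest detected genes of its group, 15600 against 16820 to 16860.

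Saline replicate 2 was the highest of its group, against the other 4 saline libraries, for Lca5 (22.2 against 7 to 10.7 CPM), Xylt2 (19.9 against 6.83 to 10.2 CPM) and Tac1 (370 against 217 to 254 CPM). It was also the highest for Cartpt (12.5 against 1.08 to 3.68 CPM) and Bdnf (1.98 against 0 to 0.449 CPM). Its summed CPM of cortical glutamatergic neuron markers was 331.4 against 49.6 to 108.7.

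Saline replicate 5 was the highest of its group in reads outside genes (20.25% against 15.2% to 16.64%), in summed endothelial and mural markers (1276 against 56.8 to 198 CPM) and in summed red blood cell genes (10.81 against 0.2048 to 2.153 CPM).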

How the results depend on the processing

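The count of genes called for escalating against saline at 1 month was 0 under all 18 alternatives, with 74 to 842 genes at an unadjusted p under 0.05; there were 469 without saline replicate 5 and 118 without saline replicate 2, and 363 with 2 surrogate variables, an alternative chosen after seeing the data, as was leaving out escalating replicate 4 and saline replicate 2 together (74). Against nonescalating libraries it was 0 under 13 alternatives. For the difference of differences, DESeq2 called 2 genes, Adgrd1 and Srrm2, and leaving out 1 library gave 0 to 1: Adgrd1 passed without saline 24 h replicate 2 (adjusted p = 0.0394 in edgeR), saline 24 h replicate 6 (0.0333) or escalating 24 h replicate 2 (0.0244). Its adjusted p was 0.103 with all libraries and the cause of these differences was not tested. Pairing was checked on log CPM at 1 month, after each gene's mean in the library's own group was subtracted. These deviations correlated at -0.096 to 0.181 between same-numbered escalating and saline libraries, and at -0.443 to 0.313 between pairs of unlike number. With only 4 same-numbered pairs, this cannot decide whether the numbers pair the libraries, and the other groups were not checked. The fit with a replicate block called 0 genes and gave 188 at an unadjusted p under 0.05. Of 3366 recomputed fold changes of 191 named genes, 0 passed, 63 moved by over 1 standard error and 77 changed sign. In 8 of these the first value was over 1 standard error from 0. They were Bambi and Sp9 without escalating replicate 4, Itgam without saline replicate 1, Grin3a and Nnat without saline replicate 2, Slc17a6 without it alone or together with escalating replicate 4, and Plin4 without both. Standard errors were larger at low levels, and the parts of depth and of the spread between libraries in them were not separated.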
